A study of Mus musculus with 6 samples.

Results

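Genes of the smooth muscle contractile apparatus and of the actin cytoskeleton were examined in mouse ovaries lacking 1 copy of Rnf111. The group was a fixed list of 32 gene symbols, and all 32 were found among the 35415 genes of the count table. It was divided into 12 genes largely restricted to smooth muscle, 15 broadly expressed actin cytoskeleton genes, 3 genes best known from striated muscle and 2 surface proteins of mural cells, the smooth muscle cells and pericytes of vessel walls. The libraries were 3 from Rnf111+/- ovaries and 3 from wild-type ovaries, each from its own mouse aged 3 months and taken at estrus. Rnf111 encodes Arkadia, a ubiquitin ligase of TGF-beta signalling, and the heterozygous mice were made with CRISPR-Cas9 to model human RNF111 variants in premature ovarian insufficiency. More than 1 edited model was made, and the labels do not say which of them was sequenced or name the strain.

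Smooth muscle shortens when myosin, switched on by phosphorylation of its regulatory light chain, pulls on actin filaments that are anchored in dense bodies and in adhesions at the membrane. The contractile genes are switched on by serum response factor (SRF), which binds a DNA element called the CArG box together with a coactivator, myocardin or a myocardin-related factor. Many cytoskeletal genes of other cells use SRF as well. In the ovary, smooth muscle lies in the walls of vessels and in the theca externa, the contractile outer layer of the follicle, which acts in follicle rupture. TGF-beta is known to raise contractile genes such as Acta2 and Tagln in several cell types.

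The libraries held 38261449 to 39474515 counts, and 16841 genes, all members included, were expressed highly enough to be tested. Levels are given in CPM, the count of a gene scaled to the size of its library. Rnf111 itself was at 44.6 ± 0.394 CPM in Rnf111+/- ovaries and 53.9 ± 0.477 CPM in wild-type ovaries (SD, n = 3 each), a log2 fold change of -0.27 ± 0.07 (SE, edgeR adjusted p = 0.04). That call was kept without wild-type replicate 3 and lost on removal of any other library, with adjusted p up to 0.146. Wild-type replicate 3 stood apart. Its 6 oviduct epithelium markers summed to 190 CPM, against 16.9 to 19.6 CPM in Rnf111+/- libraries and 13.6 and 18.7 CPM in the other wild-type libraries. It held 146 CPM of the oviduct glycoprotein gene Ovgp1, against 2.59 to 8.05 CPM in Rnf111+/- libraries and 1.85 and 6.27 CPM in the other wild-type libraries. It also held 13.7 CPM of Foxj1 and 14.6 CPM of Dnah5, genes of ciliated cells, against at most 1.69 and 0.57 CPM in any other library. As a list, 0 of the 6 markers passed between genotypes with edgeR, DESeq2 or limma-voom, or at an unadjusted p under 0.05. The oviduct wall contains smooth muscle, so results on members are given with and without this library. Whether oviduct tissue contributed to its member levels was not tested.

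The promoter sequences of the members are shown first for the CArG box, since SRF is the factor that the contractile genes share. RefSeq promoter windows (build GRCm38.p6, 250 bases before to 50 after a transcription start) were at hand for 28 of the 32 members. Tagln, Myh11, Actg2 and Myocd had no window and were not searched. Exact boxes, searched on both strands, lay in the windows of 6 members (21.43%), against 1.806% of 27025 genes. The 6 were Srf itself, Vcl, Cnn2, Myl6, Myl9 and Ldb3. Capitals mark the box, all sequences read 5′ to 3′ towards the start, and the first base of the box is numbered from the start.
Srf, 2 boxes from -82, chr17:46556215-46556264, minus strand: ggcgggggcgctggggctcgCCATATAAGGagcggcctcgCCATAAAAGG
Vcl, from -227, chr14:20929151-20929200, plus strand: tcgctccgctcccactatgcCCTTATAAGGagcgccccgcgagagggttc
Cnn2, from -56, chr10:79988524-79988573, plus strand: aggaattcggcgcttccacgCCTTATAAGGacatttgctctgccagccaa
Myl9, from -161, chr2:156775283-156775332, plus strand: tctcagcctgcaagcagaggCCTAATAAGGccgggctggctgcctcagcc
Acta2, the farther of 2 boxes with 1 of the 6 middle bases changed, from -84, chr19:34255428-34255477, minus strand: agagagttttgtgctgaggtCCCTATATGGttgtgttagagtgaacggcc
Allowing 1 changed base among the 6 middle bases brought the number to 9 of 28 members (32.14%), against 11.29% of all genes. Of the 8 members that passed the test between genotypes, described next (9.64% of all tested genes passed), only 5 could be searched (Lmod1, Smtn, Tpm2, Mcam and Mylk4), and 0 of these windows held a box of either kind. Tagln, Myh11 and Actg2, the other members that passed, are among those not searched, so no contrast between members that passed and members that did not is drawn. The window of Lmod1, a restricted gene that fell, is shown as an example without a box, over the 100 bases before its start.
Lmod1, no box, chr1:135324713-135324812, plus strand: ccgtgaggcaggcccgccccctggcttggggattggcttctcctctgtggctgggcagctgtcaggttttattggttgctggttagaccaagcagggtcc
A SMAD-binding motif, CAGAC on either strand, lay in the windows of 14 of 28 members (50%) and of 53.2% of all genes. Its palindromic form GTCTAGAC lay in 0 member windows and 0.248% of all. CATTCC, the motif of TEAD factors, lay in 9 member windows (32.14%) and 16.58% of all. These are matches of letters in short windows, and elements farther from the start were not searched.

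Between the genotypes, 5 of the 12 smooth-muscle-restricted genes fell in Rnf111+/- ovaries, and 11 of the 12 had a fitted log2 fold change below 0, as had 51.3% of all tested genes. The 5 were Tagln, Actg2, Lmod1, Myh11 and Smtn. Among the 15 genes classed as broadly expressed, 1 fell, the tropomyosin gene Tpm2, which is also abundant in smooth muscle. Of the remaining members, Mcam fell and Mylk4 rose. Across all tested genes, 5.74% fell and 3.9% rose. The median log2 fold change was -0.58 for the restricted class, -0.08 for the broad class and -0.008 for all tested genes. The difference between the 2 classes was not tested, because the members were chosen with results of these data known. The contrast in counts depended on the tool. DESeq2 called 7 restricted genes and 4 broad genes as lower, and limma-voom 5 and 1. The genes that DESeq2 added were Acta2, Des, Tpm4, Tns1 and Csrp1 as lower and Myocd and Dstn as higher. At an unadjusted p under 0.05, 8 restricted and 5 broad genes were lower. Of all 16841 tested genes, 2343 were lower and 1947 higher at that p, and DESeq2 called 1443 as lower and 1172 as higher. No member of either class rose with edgeR or limma-voom, while DESeq2 called 1 of each class as higher, and 1 restricted and 2 broad genes were higher at an unadjusted p under 0.05. In a bulk library, fewer smooth muscle cells and less RNA per cell cannot be told apart. The p-values measure the spread between the mice of these 2 groups.

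**Figure D1:**
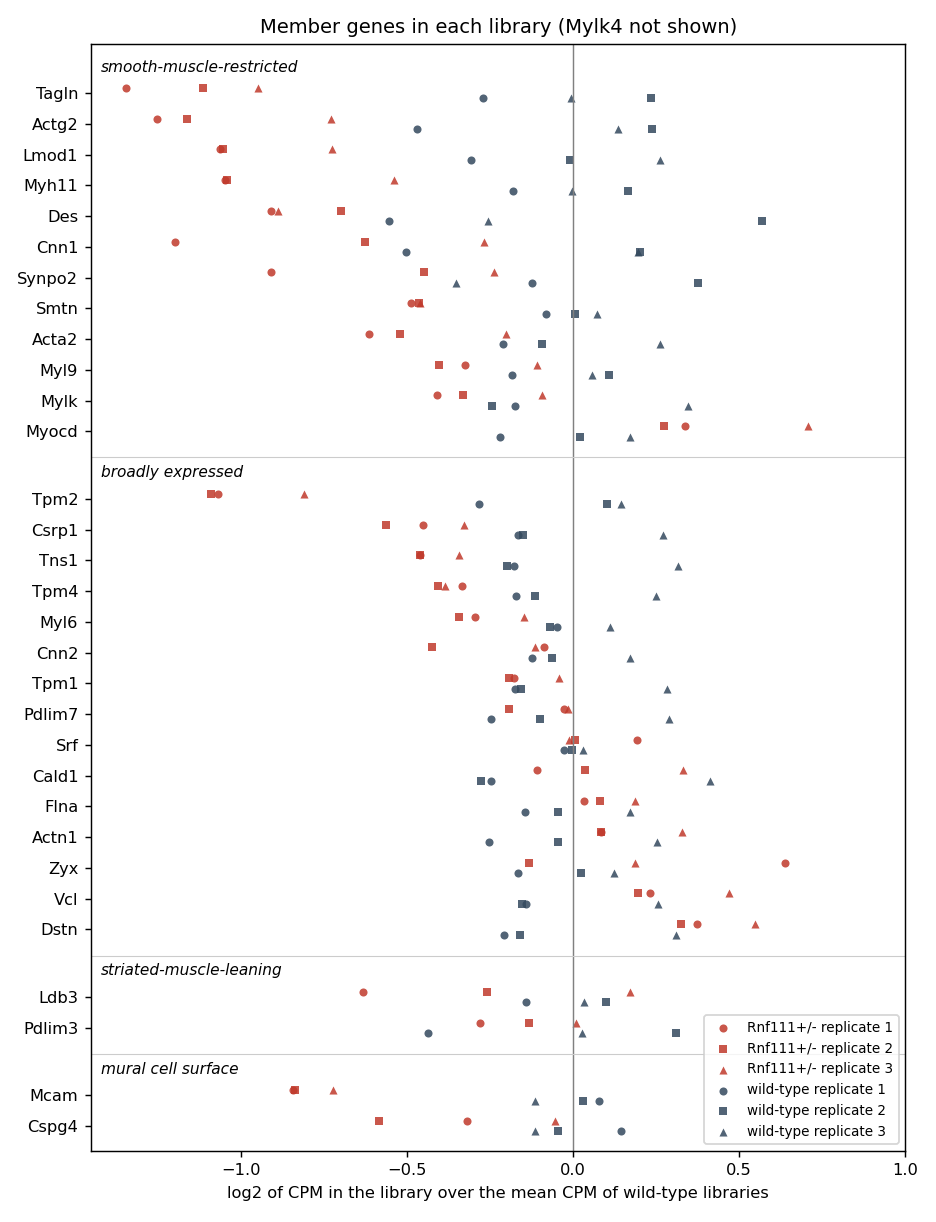
Level of 31 member genes in each library, as log2 of CPM over the mean CPM of the wild-type libraries (horizontal axis), with Rnf111+/- libraries above wild-type libraries in each row and a symbol for each replicate. Rnf111+/- points of Tagln, Actg2, Lmod1 and Myh11 lie left of all wild-type points. Those of broadly expressed genes lie on both sides of 0, and triangles (replicate 3) tend to lie to the right in both genotypes.

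The summed level of the 12 restricted genes was 1149, 1222 and 1478 CPM in Rnf111+/- libraries and 1655, 2036 and 2126 CPM in wild-type libraries. The genotypes did not overlap, and the Rnf111+/- mean was 66.2% of the wild-type mean. The 15 broadly expressed genes summed to 4354, 4228 and 4783 CPM in Rnf111+/- libraries and to 4108, 4263 and 5411 CPM in wild-type libraries, which overlapped, with a Rnf111+/- mean at 97% of the wild-type mean. Restricted over broad, the ratio of the sums was 0.264, 0.289 and 0.309 in Rnf111+/- libraries and 0.403, 0.478 and 0.393 in wild-type libraries. The ratio thus separated the genotypes, with wild-type replicate 3 the lowest of its group.

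The actins were read first. Acta2, the alpha-actin of vascular smooth muscle, was at 296, 316 and 394 CPM in Rnf111+/- libraries and at 391, 424 and 543 CPM in wild-type libraries. The highest Rnf111+/- library lay just above the lowest wild-type library, and the difference did not pass (log2 -0.43 ± 0.15, SE, edgeR adjusted p = 0.117). Without wild-type replicate 3 the value was -0.27 (adjusted p = 0.149). Acta2 passed with DESeq2 (-0.43, adjusted p = 0.0419). Actg2, the gamma-actin of visceral smooth muscle, was at 33.7, 35.9 and 48.4 CPM in Rnf111+/- libraries and 58, 94.6 and 88.2 CPM in wild-type libraries. It fell to 49% of the wild-type mean (log2 -1.03 ± 0.22, adjusted p = 0.033) with no overlap, but this call depended on single libraries. It was lost on removal of 4 of the 6 (adjusted p up to 0.13), namely Rnf111+/- replicates 1 and 2 and wild-type replicates 2 and 3. Actg2 was 0.114, 0.113 and 0.123 of Acta2 in CPM in Rnf111+/- libraries and 0.148, 0.223 and 0.163 in wild-type libraries. Muscle actins are close copies of each other, and how reads fitting several of them were counted is not given in the sources used here.

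Among the proteins that bind the thin filament, Tagln had the largest fall of any member. Tagln encodes transgelin (SM22), an actin-bundling protein and a standard early marker of smooth muscle. Its level was 161, 189 and 212 CPM in Rnf111+/- libraries and 339, 481 and 407 CPM in wild-type libraries. Every Rnf111+/- library was thus far below every wild-type library, and the mean was 45.8% of wild type (log2 -1.13 ± 0.15, adjusted p = 0.00447). The fall passed whichever library was removed (adjusted p between 0.0034 and 0.0279). Per kilobase of exon, Tagln over Acta2 was 0.695, 0.763 and 0.686 in Rnf111+/- libraries and 1.11, 1.45 and 0.957 in wild-type libraries, so that transgelin lay below alpha-actin in each Rnf111+/- library and near or above it in wild type.

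Lmod1, leiomodin, which starts new actin filaments in smooth muscle, was at 12.3, 12.3 and 15.5 CPM in Rnf111+/- libraries and 20.7, 25.4 and 30.6 CPM in wild-type libraries. It fell (log2 -0.94 ± 0.17, adjusted p = 0.0121) without overlap, and the call was lost without Rnf111+/- replicate 1 (adjusted p = 0.0534) or 2 (0.0651). Smtn encodes smoothelin, found in contractile smooth muscle. Its values were 80.7, 82.2 and 82.3 CPM in Rnf111+/- libraries and 107, 114 and 119 CPM in wild-type libraries. This fall was smaller (log2 -0.47 ± 0.07, adjusted p = 0.00489) but the groups were the tightest of the class, and the fall passed whichever library was removed. Cnn1, calponin, an inhibitor of the myosin motor, was at 17.9, 26.6 and 34.1 CPM in Rnf111+/- libraries and 29, 47.2 and 47 CPM in wild-type libraries. The groups overlapped and it did not pass (log2 -0.65 ± 0.28, adjusted p = 0.21; DESeq2 adjusted p = 0.0604).

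The tropomyosins, which run along the actin filament and control access of myosin, differed from one another. Tpm2, abundant in smooth and skeletal muscle, was at 66.8, 65.7 and 79.8 CPM in Rnf111+/- libraries and 115, 150 and 155 CPM in wild-type libraries. It fell to 50.6% of wild type without overlap (log2 -0.98 ± 0.13, adjusted p = 0.00408), and passed whichever library was removed. Tpm1, used by muscle and other cells, was at 436, 431 and 479 CPM in Rnf111+/- libraries and 437, 442 and 599 CPM in wild-type libraries. These groups overlapped (log2 -0.14 ± 0.13, adjusted p = 0.552), and without wild-type replicate 3 the sign turned (0.04, adjusted p = 0.748). Tpm4, a tropomyosin of non-muscle cells, was at 346 ± 9.17 CPM in Rnf111+/- ovaries and 449 ± 73.4 CPM in wild-type ovaries (log2 -0.37 ± 0.11, adjusted p = 0.0678). Tpm2 over Tpm1 in CPM was 0.153, 0.152 and 0.167 in Rnf111+/- libraries and 0.263, 0.339 and 0.258 in wild-type libraries, with no overlap. Of the other filament binders, Cald1, caldesmon, was at 387 ± 61.3 CPM in Rnf111+/- ovaries and 362 ± 104 CPM in wild-type ovaries (log2 0.1, adjusted p = 0.821). The broadly expressed calponin gene Cnn2 was at 68.8 ± 8.55 against 79 ± 8.79 CPM in Rnf111+/- and wild-type ovaries (log2 -0.2, adjusted p = 0.314).

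The motor of smooth muscle was lower as well. Myh11, its myosin heavy chain, was at 130, 131 and 186 CPM in Rnf111+/- libraries and 238, 302 and 269 CPM in wild-type libraries. It fell to 55.3% of wild type (log2 -0.86 ± 0.16, adjusted p = 0.0177) without overlap. The call was lost without Rnf111+/- replicate 1 (adjusted p = 0.0639), Rnf111+/- replicate 2 (0.0699) or wild-type replicate 2 (0.0527). The light chains and the kinase that acts on them differed less. Myl9, the regulatory light chain, was at 129 ± 14 CPM in Rnf111+/- ovaries and 155 ± 16.2 CPM in wild-type ovaries (log2 -0.27 ± 0.1, adjusted p = 0.142). Myl6, the essential light chain that most cells also use, was at 462, 447 and 512 CPM in Rnf111+/- libraries and 548, 540 and 613 CPM in wild-type libraries. Its groups did not overlap, but the difference did not pass (log2 -0.26 ± 0.08, adjusted p = 0.0875). Mylk, the light chain kinase, was at 240 ± 28 against 289 ± 68 CPM in Rnf111+/- and wild-type ovaries (log2 -0.27 ± 0.17, adjusted p = 0.364). Most of its wild-type spread came from replicate 3, and without that library the value was -0.05 (adjusted p = 0.747).

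Mylk4 was the only member that rose in the fit of all libraries. It encodes a kinase related to the light chain kinase. The counts were 67, 69 and 84 in Rnf111+/- libraries and 11, 6 and 1 in wild-type libraries, or 1.67, 1.76 and 2.19 CPM in Rnf111+/- libraries against 0.287, 0.156 and 0.0255 CPM in wild-type libraries. In sums these were 220 counts in Rnf111+/- libraries against 18 in wild-type libraries, a 12.1-fold ratio, or 3.59 on the log2 scale with a counting interval of 2.9 to 4.37. The level was low even in Rnf111+/- ovaries (fitted log2 3.56 ± 0.6, adjusted p = 0.01), and the call was lost without Rnf111+/- replicate 3 (adjusted p = 0.0514). Mylk4 passed the filter on low counts (minimum count 10) only through the Rnf111+/- libraries, as wild-type replicates 2 and 3 held 6 and 1 counts. Its entry into the test thus depended on the group where it was high. The other genes best known from striated muscle, both encoding LIM proteins of the Z-disc, overlapped between genotypes. Pdlim3 was at 8.29 ± 0.822 CPM in Rnf111+/- ovaries and 9.07 ± 2.28 CPM in wild-type ovaries (log2 -0.13, adjusted p = 0.743). Ldb3 was at 4.36 ± 1.21 CPM in Rnf111+/- ovaries and 5.01 ± 0.425 CPM in wild-type ovaries (log2 -0.2, adjusted p = 0.645). Markers of skeletal and heart muscle summed to 4.21 to 6.41 CPM in Rnf111+/- libraries and 4.34 to 5.11 CPM in wild-type libraries over 12 genes. Of these, 8 were tested and 0 passed with edgeR, while 1 was higher at an unadjusted p under 0.05, 1 with DESeq2 and 0 with limma-voom. The gene higher at an unadjusted p was Myh6, a heart myosin heavy chain, with 31, 56 and 48 counts in Rnf111+/- libraries and 15, 22 and 12 in wild-type libraries (log2 1.44 ± 0.43, adjusted p = 0.0751). Myh2, a skeletal myosin heavy chain too low to be tested, had 12, 14 and 9 counts in Rnf111+/- libraries and 2, 3 and 1 in wild-type libraries. Like Mylk4, both were higher in every Rnf111+/- library, as were 15.1% of all tested genes. Of the 8 tested muscle markers, 5 had values below 0 and 3 above (median log2 -0.08). Whether Mylk4, Myh6 and Myh2 are related was not tested.

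**Figure D2:**
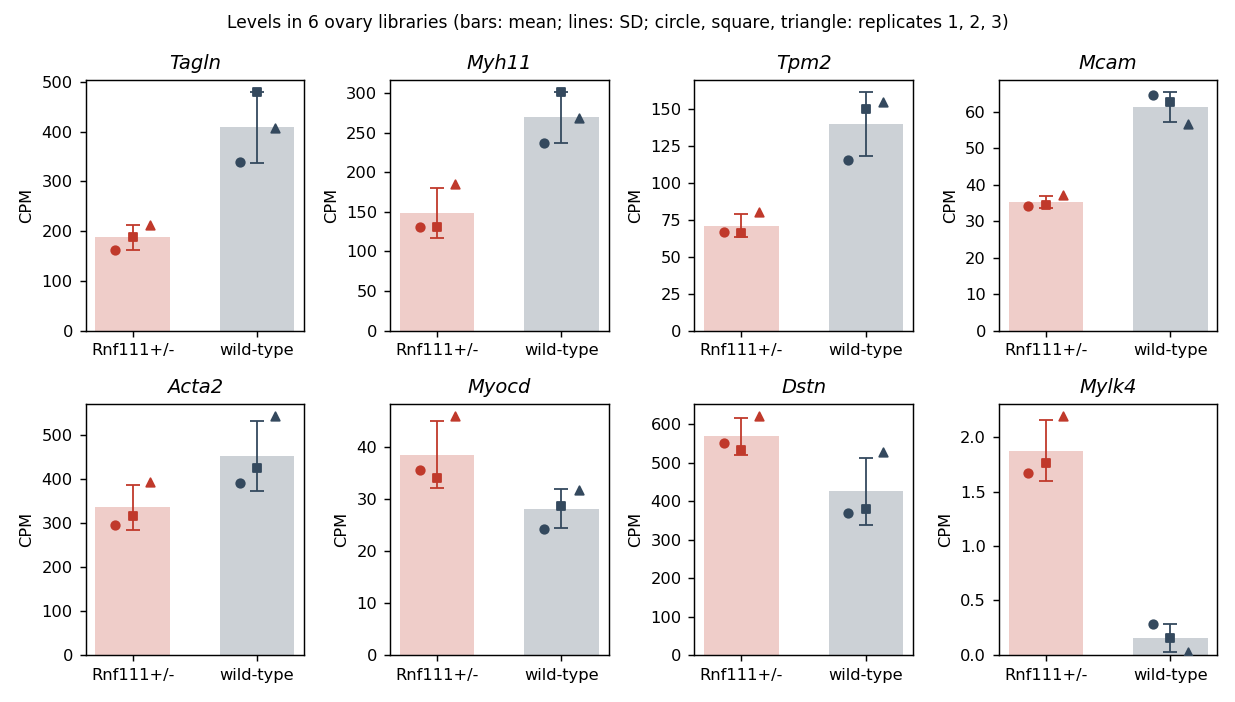
CPM of 8 members in each library, with Rnf111+/- left and wild-type right in every panel, bars for the mean, lines for the SD and symbols for replicates 1 to 3; every axis starts at 0. Tagln, Myh11, Tpm2 and Mcam are lower in every Rnf111+/- library, Acta2 overlaps, and Myocd, Dstn and Mylk4 are higher in every Rnf111+/- library.

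The dense bodies and adhesions that anchor the filaments gave no call among 10 genes with edgeR or limma-voom, while 1 was higher and 2 were lower at an unadjusted p under 0.05, and DESeq2 called 2 as lower. Of all 16841 tested genes, 1947 were higher and 2343 lower at that p, and DESeq2 called 1443 as lower. The intermediate filament that ties dense bodies together did not pass with edgeR. Des, desmin, the intermediate filament of muscle, was at 31.4, 36.3 and 31.9 CPM in Rnf111+/- libraries and 40.2, 87.4 and 49.4 CPM in wild-type libraries. All Rnf111+/- values lay below all wild-type values, with wild-type replicate 2 far above the rest, and the difference did not pass (log2 -0.83 ± 0.29, adjusted p = 0.135). Without that library the value was -0.42 (adjusted p = 0.103), and with DESeq2 on all libraries Des passed (-0.82, adjusted p = 0.00835). Synpo2, synaptopodin-2, a partner of actin in muscle, was at 11.1 ± 2.51 CPM in Rnf111+/- ovaries and 15.7 ± 4.19 CPM in wild-type ovaries (log2 -0.51, adjusted p = 0.216), and at -0.26 without wild-type replicate 2. Csrp1, a LIM protein abundant in smooth muscle, was at 215, 200 and 235 CPM in Rnf111+/- libraries and 263, 265 and 356 CPM in wild-type libraries, without overlap (log2 -0.44 ± 0.13, adjusted p = 0.0641). Tns1, tensin, which joins actin to integrins, was at 196, 196 and 212 CPM in Rnf111+/- libraries and 238, 234 and 334 CPM in wild-type libraries (log2 -0.42 ± 0.14, adjusted p = 0.0993). Its groups did not overlap either.

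Among the other adhesion genes, 4 had fitted values above 0 and none of them passed. Vcl, vinculin, the protein that strengthens adhesions under tension, was at 230, 225 and 271 CPM in Rnf111+/- libraries and 178, 176 and 234 CPM in wild-type libraries. Only wild-type replicate 3 reached into the Rnf111+/- range (log2 0.3 ± 0.13, adjusted p = 0.178). Actn1, the cross-linker alpha-actinin, was at 193 ± 19.3 against 171 ± 30.6 CPM in Rnf111+/- and wild-type ovaries (log2 0.17, adjusted p = 0.474), and Flna, filamin A, at 947 ± 51.9 against 883 ± 101 CPM (0.1, adjusted p = 0.553). Zyx, zyxin, a tension-sensing adhesion protein, was at 194, 114 and 142 CPM in Rnf111+/- libraries and 112, 127 and 136 CPM in wild-type libraries (log2 0.27, adjusted p = 0.444), and its groups overlapped. Without Rnf111+/- replicate 1, its highest library, the value for Zyx was 0.04, and without Rnf111+/- replicate 2 it was 0.44. Pdlim7, a scaffold of the same structures, was at 52.5 ± 3.51 CPM in Rnf111+/- ovaries and 55.4 ± 11 CPM in wild-type ovaries (log2 -0.08, adjusted p = 0.774). Dstn, destrin, which severs actin filaments, was at 551, 533 and 622 CPM in Rnf111+/- libraries and 368, 381 and 527 CPM in wild-type libraries. It was higher in every Rnf111+/- library, but did not pass with all libraries (log2 0.42 ± 0.14, adjusted p = 0.109).

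Neither regulator of the contractile genes fell. Myocd, myocardin, the SRF coactivator that drives smooth muscle genes, was at 35.5, 34 and 45.9 CPM in Rnf111+/- libraries and 24.2, 28.6 and 31.7 CPM in wild-type libraries. All Rnf111+/- libraries lay above all wild-type libraries (log2 0.45 ± 0.14), which did not pass with all libraries (adjusted p = 0.0869) and passed without wild-type replicate 3 (0.55, adjusted p = 0.0237). It was the one restricted gene with a value above 0. Srf was at 97.1, 85.3 and 84.2 CPM in Rnf111+/- libraries and 83.5, 84.7 and 86.7 CPM in wild-type libraries. Apart from Rnf111+/- replicate 1 these values were close together (log2 0.07 ± 0.08, adjusted p = 0.644), and an interval of 2 standard errors ran from -0.09 to 0.22. The myocardin-related factor genes Mrtfa (-0.02, adjusted p = 0.901) and Mrtfb (0.23, adjusted p = 0.0771), which couple the actin pool to SRF, did not pass with all libraries. Without wild-type replicate 3, Mrtfb passed as higher (0.26, adjusted p = 0.0385) and Mrtfa did not pass (-0.06, adjusted p = 0.684).

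The mural surface genes were split. Mcam encodes CD146, an adhesion protein of vascular smooth muscle, pericytes and endothelium. It was at 34.2, 34.4 and 37.1 CPM in Rnf111+/- libraries and 64.7, 62.6 and 56.7 CPM in wild-type libraries. It fell to 57.5% of wild type (log2 -0.8 ± 0.08, adjusted p = 0.00118), had the smallest p of all members and passed whichever library was removed. Cspg4, the NG2 proteoglycan of pericytes, was at 17.3, 14.4 and 20.8 CPM in Rnf111+/- libraries and 23.9, 21 and 20 CPM in wild-type libraries. Its groups overlapped (log2 -0.3 ± 0.15, adjusted p = 0.247), and the value was -0.17 without Rnf111+/- replicate 2.

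**Figure D3:**
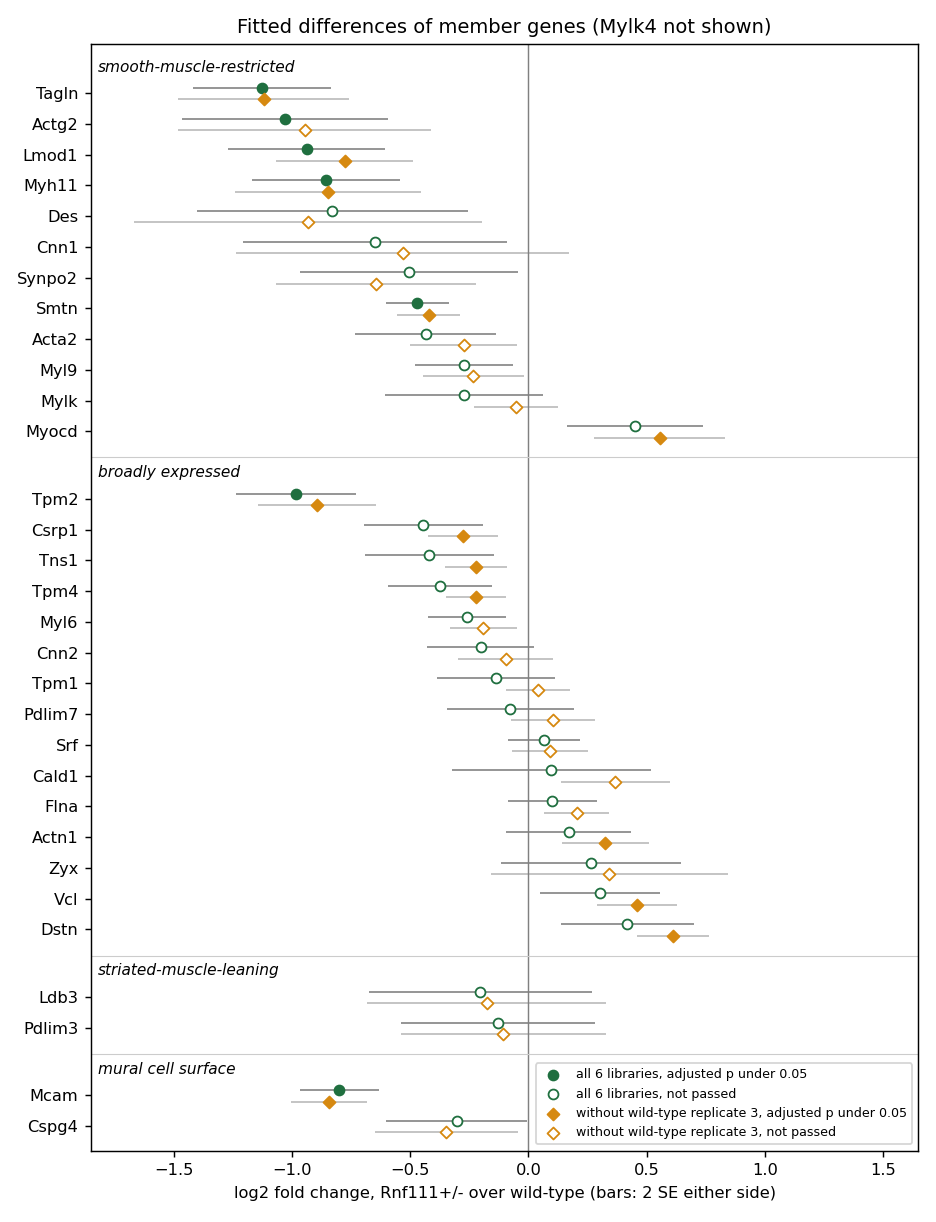
Fitted log2 fold change, Rnf111+/- over wild-type (horizontal axis, bars of 2 standard errors either side), of 31 members in all 6 libraries (circles) and without wild-type replicate 3 (diamonds); filled symbols passed edgeR's test. Filled circles are Tagln, Actg2, Lmod1, Myh11, Smtn, Tpm2 and Mcam, and without wild-type replicate 3 Myocd, Actn1, Vcl and Dstn become filled on the right.

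Without wild-type replicate 3, 7 broadly expressed genes passed in place of 1, while the number of restricted genes that passed was 5 in both fits. In the fit without it, 4 restricted genes fell (Tagln, Myh11, Smtn and Lmod1) and 1 rose (Myocd), and the median was -0.59. In the broad class 4 fell (Tpm2, Tpm4, Tns1 and Csrp1) and 3 rose. The differences of Tpm4 (-0.22, adjusted p = 0.0346), Tns1 (-0.22, adjusted p = 0.0426) and Csrp1 (-0.28, adjusted p = 0.0286) were smaller than the -0.37, -0.42 and -0.44 in all libraries, where they did not pass. The rises were those of Dstn (log2 0.61 ± 0.08, adjusted p = 0.000325), Vcl (0.46 ± 0.08, adjusted p = 0.004) and Actn1 (0.33 ± 0.09, adjusted p = 0.0372), and the class median was 0.09. In this fit 8.82% of all tested genes fell and 7.37% rose. All 15 broadly expressed genes had their highest wild-type level in replicate 3, as had 5 of the 12 restricted genes and 39.5% of all tested genes. Replicates also differed in the Rnf111+/- group, where replicate 3 held the highest level of 27 of the 32 members (84.4%), against 33.1% of all tested genes. Members therefore varied together within a genotype, and their counts are not counts of independent events.

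For 6 of the 12 restricted genes (the 5 that fell and Des) and for 5 of the 15 broad genes (Tpm2, Tpm4, Myl6, Tns1 and Csrp1) all Rnf111+/- libraries were below all wild-type libraries, which held for 16.9% of all tested genes. All Rnf111+/- libraries were above all wild-type libraries for Myocd, Dstn and Mylk4, and for 15.1% of all tested genes.

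Per kilobase of exon, the ranking of the restricted genes in wild-type ovaries began with Tagln (256 CPM per kilobase), Acta2 (223) and Myl9 (138), followed by Actg2 (58.8), Myh11 (40.8), Mylk (35.8) and Smtn (29). In Rnf111+/- ovaries it began with Acta2 (165), Tagln (117) and Myl9 (114), and Mylk (29.6) and Actg2 (28.8) came next. Several of these neighbours differed by less than their spread between libraries. In Rnf111+/- ovaries these were Tagln and Myl9, and Mylk and Actg2. In wild-type ovaries these were Tagln and Acta2, whose order was the reverse in replicate 3, and Myh11, Mylk and Smtn. Synpo2 was lowest in both genotypes, at 0.855 and 1.21 CPM per kilobase in Rnf111+/- and wild-type ovaries. Among broadly expressed genes the order began with Dstn (298) and Myl6 (280 CPM per kilobase) in Rnf111+/- ovaries and with Myl6 (335) and Dstn (223) in wild-type ovaries. In Rnf111+/- ovaries the means of this pair differed by less than their spread between libraries. Within libraries, however, Dstn lay above Myl6 in every Rnf111+/- library and below it in every wild-type library. Exon lengths are those of the GENCODE M21 annotation, and which isoforms the ovary used was not measured.

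Other genes of smooth muscle and pericytes were taken from a list of 35 genes, of which 2 rose and 6 fell (median log2 -0.24). Of all tested genes, 3.9% rose and 5.74% fell. Cacna1c, the pore subunit of the L-type calcium channel that triggers contraction, fell to 22.3 ± 0.326 CPM in Rnf111+/- ovaries, against 46.4 ± 2.9 CPM in wild-type ovaries (log2 -1.06 ± 0.08, adjusted p = 0.000388). Agtr1a, a receptor for the vasoconstrictor angiotensin II, fell to 0.61 ± 0.187 CPM in Rnf111+/- ovaries, against 3.02 ± 0.145 CPM in wild-type ovaries (log2 -2.3 ± 0.31, adjusted p = 0.00409). Kcnma1, the large-conductance potassium channel that opposes contraction, rose to 129 ± 11.2 CPM in Rnf111+/- ovaries, against 92.1 ± 3.39 CPM in wild-type ovaries (log2 0.49 ± 0.08, adjusted p = 0.0087). Aoc3, an amine oxidase on the surface of smooth muscle, fat and endothelial cells, rose as well (0.8 ± 0.13, adjusted p = 0.0105). These 4 calls held whichever library was removed. Of 8 pericyte markers, Cspg4 included, none passed with edgeR (median log2 -0.2), with 1 lower at an unadjusted p under 0.05, 1 lower with DESeq2 and 0 with limma-voom. Their summed level was 209 to 265 CPM in Rnf111+/- libraries and 251 to 297 CPM in wild-type libraries, which overlapped.

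Genes of the general actin machinery and of RhoA signalling, which keeps the light chain phosphorylated, formed a list of 40, with 39 tested, of which 2 rose and 8 fell (median log2 -0.1). The shares over all tested genes were 3.9% that rose and 5.74% that fell. Neither cytoplasmic actin gene, which all cells use, fell. Actb was at 1667 ± 92.7 CPM in Rnf111+/- ovaries and 1541 ± 67 CPM in wild-type ovaries (log2 0.11 ± 0.07, adjusted p = 0.386). Actg1 rose to 984 ± 63.1 CPM in Rnf111+/- ovaries, against 757 ± 80.4 CPM in wild-type ovaries (log2 0.38 ± 0.09, adjusted p = 0.0407), a call kept without wild-type replicate 3 and lost without any other library (adjusted p up to 0.146). Tagln over Actb in CPM was 0.0922, 0.121 and 0.126 in Rnf111+/- libraries and 0.21, 0.323 and 0.267 in wild-type libraries. Vim, the intermediate filament vimentin of mesenchymal cells, fell by 0.78 on the log2 scale (SE 0.08, adjusted p = 0.00108), and Tagln2 and Lasp1, actin-binding proteins, by 0.84 (adjusted p = 0.0142) and 0.41 (adjusted p = 0.0104). Removal of single libraries cost Tagln2 its call in 3 of 6 cases (adjusted p up to 0.0693). Ppp1cb, the catalytic subunit of myosin phosphatase, fell by 0.29 (adjusted p = 0.0229). Rock2, a RhoA-activated kinase, fell by 0.27 (adjusted p = 0.049). Both calls were kept without wild-type replicate 3 and lost without any other library, with adjusted p up to 0.1 for Ppp1cb and 0.16 for Rock2. Rhoa (-0.11, adjusted p = 0.366), Rock1 (0.02, adjusted p = 0.92) and Ppp1r12a, the targeting subunit of myosin phosphatase (0.09, adjusted p = 0.509), did not pass.

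Markers of stromal fibroblasts and of endothelium moved with the restricted genes, while the granulosa and fat cell lists had medians above 0 (log2 0.21 and 0.29). For comparison, 5.74% of all tested genes fell and 3.9% rose. Of 10 stromal fibroblast markers 7 fell and 0 rose with edgeR, with Lum (log2 -0.92, adjusted p = 0.000491), Col3a1 (-1.02, adjusted p = 0.00395) and Dcn (-0.89, adjusted p = 0.0183) among them. Values were below 0 for 8 of the fibroblast markers and above 0 for 2. The summed level of the list was 2299 to 2690 CPM in Rnf111+/- libraries and 3661 to 4152 CPM in wild-type libraries. Of 10 endothelial markers 6 fell and 0 rose, among them Cdh5 (-0.51, adjusted p = 0.0157), Kdr (-0.39, adjusted p = 0.0196) and Cldn5 (-0.4, adjusted p = 0.0224), with sums of 444 to 502 CPM in Rnf111+/- libraries and 561 to 687 CPM in wild-type libraries. Removal of single libraries cost Dcn, Kdr and Cldn5 their calls in 4 of 6 cases and Cdh5 in 3 (adjusted p up to 0.108). DESeq2 also called none of either list as higher, and none was higher at an unadjusted p under 0.05. The mean sums were 64.5% and 77.4% of wild type, beside 66.2% for the restricted smooth muscle genes. Of 8 granulosa markers 1 rose with edgeR, Cyp19a1 (2.35, adjusted p = 0.0188), a call lost on removal of 4 of the 6 libraries (adjusted p up to 0.0725). DESeq2 and limma-voom each called 2 as higher, and 2 were higher at an unadjusted p under 0.05. Fshr did not pass with all libraries (1.08, adjusted p = 0.068). Without wild-type replicate 3 it rose (0.81, adjusted p = 0.00102), while Cyp19a1 did not pass (2.18, adjusted p = 0.0725). The granulosa sums overlapped at 4128 to 5655 CPM in Rnf111+/- libraries and 2369 to 4619 CPM in wild-type libraries. Of 5 tested fat cell markers 0 passed with edgeR, DESeq2 or limma-voom or at an unadjusted p under 0.05, and the list summed to 125 to 237 CPM in Rnf111+/- libraries and 76.2 to 179 CPM in wild-type libraries. Without wild-type replicate 3, the highest of its group, the wild-type sums were 76.2 and 105 CPM, below all Rnf111+/- sums, the median log2 of the list was 0.96 in place of 0.29, and Plin1, a lipid droplet protein, rose (1.29, adjusted p = 0.0013). The other 4 tested markers did not pass in that fit. Most of each sum was Plin4, at 115, 97 and 211 CPM in Rnf111+/- libraries and 62.3, 83.8 and 119 CPM in wild-type libraries. The part of stroma, vessels or fat in the results on members was not tested.

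**Figure D4:**
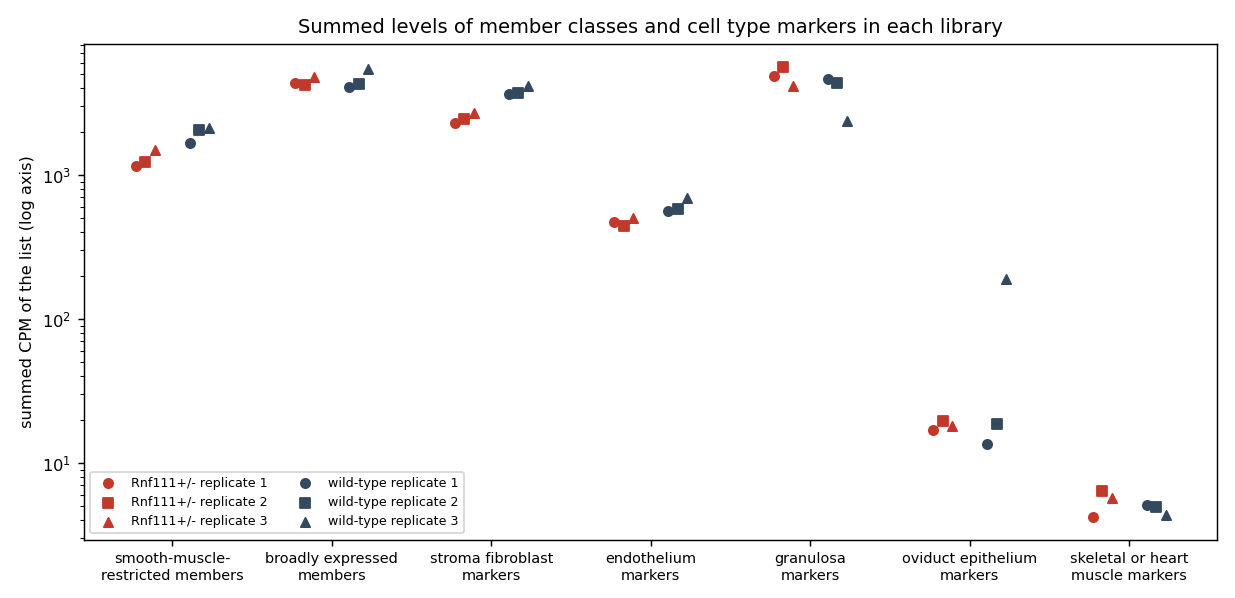
Summed CPM (log axis) of 2 member classes and 5 cell type marker lists in each library, with Rnf111+/- left of wild-type in each pair and a symbol for each replicate. Restricted smooth muscle genes, fibroblast markers and endothelial markers are lower in every Rnf111+/- library, broadly expressed members overlap, and wild-type replicate 3 stands far above all other libraries in oviduct markers and below them in granulosa markers.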

How the data were processed

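Per the labels, total RNA of ovaries was taken up in TRIzol and prepared for sequencing with the VAHTS Universal V6 kit. What the authors deposited were whole-number read counts per gene symbol for 6 libraries. The submitters' processing notes name fastp (0.20.1), HISAT2 (2.1.0), HTSeq (0.11.2), DESeq2 (1.38.3) and build GRCm39. Their order, the annotation and the strand setting are nowhere given in the sources used. There were 0 columns without a sample and 0 rows naming no gene.

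For these counts edgeR (4.0.16, under R 4.3.3) was run with the default filterByExpr settings (minimum count 10, minimum total 15), scaling by the trimmed mean of M values (TMM), and a robust quasi-likelihood fit with genotype as the only term. Two-sided p-values of the 16841 tested genes were adjusted together (Benjamini-Hochberg), and a gene was called below 0.05. Every adjusted p is from this fit unless another tool is named. The SE is the log2 fold change over the square root of F. With 3 libraries against 3, an exact permutation test of a single gene cannot go below p = 0.1, so none is given. The libraries most alike were wild-type 1 and 2, whose chi-square over degrees of freedom was 11.8, beyond sampling noise, and each library counts as 1 replicate. Intervals are exact binomial (Clopper-Pearson) at 95% and, like the floor of 3 counts (0.0747 to 0.0784 CPM), cover counting error only.

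The members, classes and lists were chosen with earlier results of these data known, so no test over a list is given. The named genes were all members, Rnf111, the 4 called genes of smallest p in each pathway list, 8 actin and RhoA pathway genes whatever their result, and the 3 called genes of smallest p in each marker list. Genes named outside this rule were chosen after their values were seen: Ovgp1, Foxj1, Dnah5, Myh6, Myh2, Fshr, Plin1, Plin4, Oxtr, Hspb7, Ccn2, Ccn1 and Ankrd1. Lengths and promoter sequences are of the earlier build GRCm38 and were used for levels per length and for motifs. The steps were tested on simulated data. Alternatives were other scalings, other filters, DESeq2 (1.42.0), limma-voom (limma 3.58.1), the replicate number as a block, each library left out, and Tpm1, Tpm2, Csrp1 and Cald1 counted with the restricted class.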

Additional observations from a re-analysis of the deposited data

How the results depend on the processing

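Calls over all genes (657 higher, 966 lower) depended most on single libraries, at 224 to 1273 higher and 297 to 1522 lower with each library left out in turn, and DESeq2 called 1172 as higher. Restricted genes that fell (5) numbered 2 to 5 and those that rose 0 to 1 in those fits, and broad genes that rose numbered 0 to 3 and those that fell 1 to 4. With DESeq2, 7 restricted (Acta2 and Des added) and 4 broad genes fell, and 1 restricted and 1 broad gene rose. Without a filter on low counts 4 restricted genes fell, 1 rose and 2 broad genes fell. Counting Tpm1, Tpm2, Csrp1 and Cald1 with the restricted class left 0 broad genes that fell and gave 6 restricted genes that fell. The medians were then -0.49 for the restricted and 0.07 for the broad class. The class medians stayed within 1 SD between replicates (0.18 for the restricted and 0.22 for the broad class) under every alternative run. For the broad class that SD is larger than the median itself (-0.08), so staying within it says little. The broad median ran from -0.18 to 0.09 and turned sign without wild-type replicate 3. The restricted median ran from -0.73 to -0.45. The replicate number does not mark a pairing in the labels, and deviations of same-numbered libraries correlated at 0.02, 0.03 and 0.17 across genes. Among the 12 restricted genes, however, replicate 1 was the lowest library for 10 in Rnf111+/- ovaries and for 10 in wild-type ovaries. With the replicate number as a block, 7 restricted genes fell, with Acta2 (adjusted p = 0.0102) and Cnn1 (0.0131) added, 4 broad genes fell, and 1 restricted and 2 broad genes rose. The SE of Acta2 was 0.061 with the block and 0.149 without it, and that of Cnn1 was 0.102 and 0.28. Signs turned, with no call on either side, on removal of wild-type replicate 3 for Tpm1 (range over removals -0.206 to 0.0396) and Pdlim7 (-0.175 to 0.105), of wild-type replicate 2 for Pdlim3 (-0.297 to 0.063), of Rnf111+/- replicate 1 for Srf (-0.0024 to 0.11), and of wild-type replicate 1 or 2 or Rnf111+/- replicate 3 for Cald1 (-0.0321 to 0.368). Of 416 values of single members under alternatives, 374 kept direction and call, 24 gained a call and 11 lost it. The median of all genes moved by less than 0.1 (log2) under each scaling. Depth limits Mylk4, with 1 to 11 counts in wild-type libraries.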

Other observations

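A pair of genes from the pathway lists, picked after their values were seen, moved more than any called member except Mylk4. So did Agtr1a (log2 -2.3, edgeR adjusted p = 0.00409) and Hspb7 (-1.58, edgeR adjusted p = 0.0474) of the same lists. Hspb7 lost its call on removal of 4 of the 6 libraries. Oxtr, the oxytocin receptor, which triggers contraction in uterine smooth muscle, was at 26.7, 24.6 and 28.3 CPM in Rnf111+/- libraries and 207, 239 and 79.4 CPM in wild-type libraries. The genotypes did not overlap, and wild-type replicate 3 was the lowest of its group. Oxtr fell (log2 -2.72 ± 0.43, edgeR adjusted p = 0.0219), and without wild-type replicate 3 the value was -3.06 (adjusted p = 2.28e-08), while removal of single libraries cost it the call in 4 of 6 cases (adjusted p up to 0.097). Ccn2, a matricellular protein gene known as a target of TGF-beta and of myocardin-related factors, was at 188, 127 and 232 CPM in Rnf111+/- libraries and 54.3, 74.7 and 39 CPM in wild-type libraries. It rose (log2 1.7 ± 0.31, adjusted p = 0.027), without overlap and opposite in direction to Tagln. All Rnf111+/- libraries were above all wild-type libraries for 15.1% of all tested genes and below them for 16.9%. In the same list Ccn1 did not pass (log2 -0.21, adjusted p = 0.676). Ankrd1, too low to be tested, had 0, 1 and 1 counts in Rnf111+/- libraries and 6, 7 and 28 in wild-type libraries. The call of Ccn2 was also lost on removal of 4 of the 6 libraries (adjusted p up to 0.088), wild-type replicate 3 among them (adjusted p = 0.0664).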
